A study of Mus musculus with 12 samples.

Results

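The subject is a group of 10 genes of the smooth muscle and myofibroblast contractile apparatus, *Acta2*, *Actg2*, *Tagln*, *Cnn1*, *Cnn2*, *Myl9*, *Mylk*, *Tpm1*, *Tpm2* and *Cald1*, chosen by name from the 46731 genes of the table. All 10 are listed. Only 6 of them reached 1 FPKM (fragments scaled by gene length and library depth) in at least 3 libraries and were tested, among 12368 tested genes in all. The other 4 (*Actg2*, *Tagln*, *Cnn1* and *Myl9*) were close to or at 0 and are given by their fragments.

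RNA-seq was performed on ATDC5 cells, a chondrogenic mouse line that the labels also describe as teratocarcinoma cells. The cells carried a stably integrated lentiviral hairpin, against *Ddx5* in the line shRNA-*Ddx5* and a negative control in the line shRNA-NC, and both lines had been selected with puromycin. Each line was collected after 6 h without stimulation, here called medium, or after 6 h with IL-1β and TNF-α, here called cytokines, which gave 4 groups of 3 libraries. The study was concerned with osteoarthritis, and the comparisons address what loss of *Ddx5* does to chondrogenic cells with and without these cytokines. The knockdown rests on 1 hairpin in 1 cell line, and all 4 groups carry an integrated vector. The labels number the replicates but do not say what separates them. The study's figure legends state 3 biologically independent experiments, which the labels do not tie to the replicate numbers. The p-values measure the spread between these libraries.

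Smooth muscle cells and myofibroblasts pull on their matrix through bundles of actin and myosin. Smooth muscle α-actin (*Acta2*) is the usual marker of a myofibroblast, while transgelin, calponins, tropomyosins and caldesmon bind actin filaments, and myosin light chain kinase switches myosin on by phosphorylating its regulatory light chain. Many of these genes carry CArG boxes, the sites of serum response factor (SRF), which works with myocardin or with the myocardin-related factors MRTF-A and MRTF-B. In fibrosing tissue the genes are known to be switched on together, which is why it was asked whether *Acta2* moved with the rest.

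To show what lies upstream of the genes, the 250 bases before each listed RefSeq promoter start were searched on both strands. Other starts of the genes were not searched. The motif was the CArG box, of 10 bases. A looser form, in which 1 of its 6 central A or T bases is a C or G, was called CArG-like and was searched after the strict form. RefSeq promoters on GRCm38.p6 were found for 8 of the 10 genes, in 9 windows (2 for *Cald1*). *Actg2* and *Tagln* had no entry. The strict box stood in the windows of *Cnn2* and *Myl9*, and the looser form in those of *Acta2*, with 2 matches, and *Myl9*. Among all 32851 promoter windows of the same length, 1.47% held a strict box, 7.24% a CArG-like match and 0.548% 2 or more CArG-like matches. The 3 windows with a match are shown, with the matches in capitals. They belong to the gene that rose the most (*Acta2*), to the one next to it (*Cnn2*) and to a gene without a single fragment (*Myl9*).
Acta2, chr19:34255374-34255623, minus strand: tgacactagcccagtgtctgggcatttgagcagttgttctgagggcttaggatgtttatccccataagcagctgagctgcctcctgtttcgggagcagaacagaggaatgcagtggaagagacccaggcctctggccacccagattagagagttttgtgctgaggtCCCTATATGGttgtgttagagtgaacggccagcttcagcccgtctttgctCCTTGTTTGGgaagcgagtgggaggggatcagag
Cnn2, chr10:79988350-79988599, plus strand: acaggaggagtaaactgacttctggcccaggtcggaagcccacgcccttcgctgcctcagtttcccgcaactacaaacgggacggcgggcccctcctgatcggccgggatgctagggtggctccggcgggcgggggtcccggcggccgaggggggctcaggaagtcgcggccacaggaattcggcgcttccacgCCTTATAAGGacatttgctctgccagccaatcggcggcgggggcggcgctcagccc
Myl9, chr2:156775214-156775463, plus strand: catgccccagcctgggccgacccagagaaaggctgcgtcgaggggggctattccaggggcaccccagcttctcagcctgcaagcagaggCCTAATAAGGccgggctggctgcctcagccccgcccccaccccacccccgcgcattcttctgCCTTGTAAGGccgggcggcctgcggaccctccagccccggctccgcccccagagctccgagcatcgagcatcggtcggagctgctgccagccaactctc
The 2 matches of *Acta2* begin 84 and 34 bases before the start, the box of *Cnn2* 56 bases before it, and the strict and looser matches of *Myl9* 161 and 99 bases before it. A match describes letters only, and a window without one says nothing of a factor's binding.

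The libraries held 14119199 to 19276520 fragments on genes. *Ddx5*, an RNA helicase of the DEAD-box family, had a mean of 319 FPKM in shRNA-NC and 103 in shRNA-*Ddx5* cells in medium, 32.3% of the control, and 310 and 99.5 with cytokines, 32.1% of the control. The log2 fold change was -1.63 in both (standard error 0.10, adjusted p = 9.5e-07 and 9.1e-07 by limma with Benjamini-Hochberg adjustment). Replicate 2 of shRNA-NC with cytokines stood apart. Among the 2906 genes called higher in shRNA-*Ddx5* with cytokines, it was the highest of the 3 controls for 54.6%, against 24.6% and 20.6% for the other two, although its *Ddx5* (302 FPKM) was near theirs (327 and 301). The main values that rest on it are also given without it. Log2 fold changes are differences of log2(FPKM + 1), so that changes of weakly expressed genes come out too small, and a change was called at an adjusted p under 0.05 over all 12368 genes.

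*Ddx5* knockdown raised 5 of the 6 tested contractile genes in medium and 4 of them with cytokines, and lowered none. *Acta2* rose 21.4-fold and 15.5-fold as a ratio of mean FPKM, *Cnn2* 2.88-fold and 2.83-fold, *Mylk* 2.00-fold and 2.58-fold, and *Cald1* 1.41-fold and 1.45-fold. *Tpm1* rose 1.55-fold in medium only, and *Tpm2* was called in neither. Of all tested genes, 47% were called in medium (25.3% higher and 21.7% lower) and 45.6% with cytokines (23.5% higher and 22.1% lower). *Acta2* passed the filter on low values through the knockdown libraries and 1 control only, so that its place among the 6 is not independent of its change. The median log2 fold change of the 6 genes was 0.64 in medium and 0.53 with cytokines, where the median of all tested genes was 0.03 and 0.01. Values of the 2 groups did not overlap for 5 of the 6 genes in each condition, in either direction. With cytokines these included *Tpm1*, whose knockdown libraries lay below the controls. Of all tested genes, 53.5% showed no overlap in medium and 61.6% with cytokines. Fewer cells expressing a gene and less RNA of it per cell cannot be told apart in these bulk libraries.

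**Figure D1:**
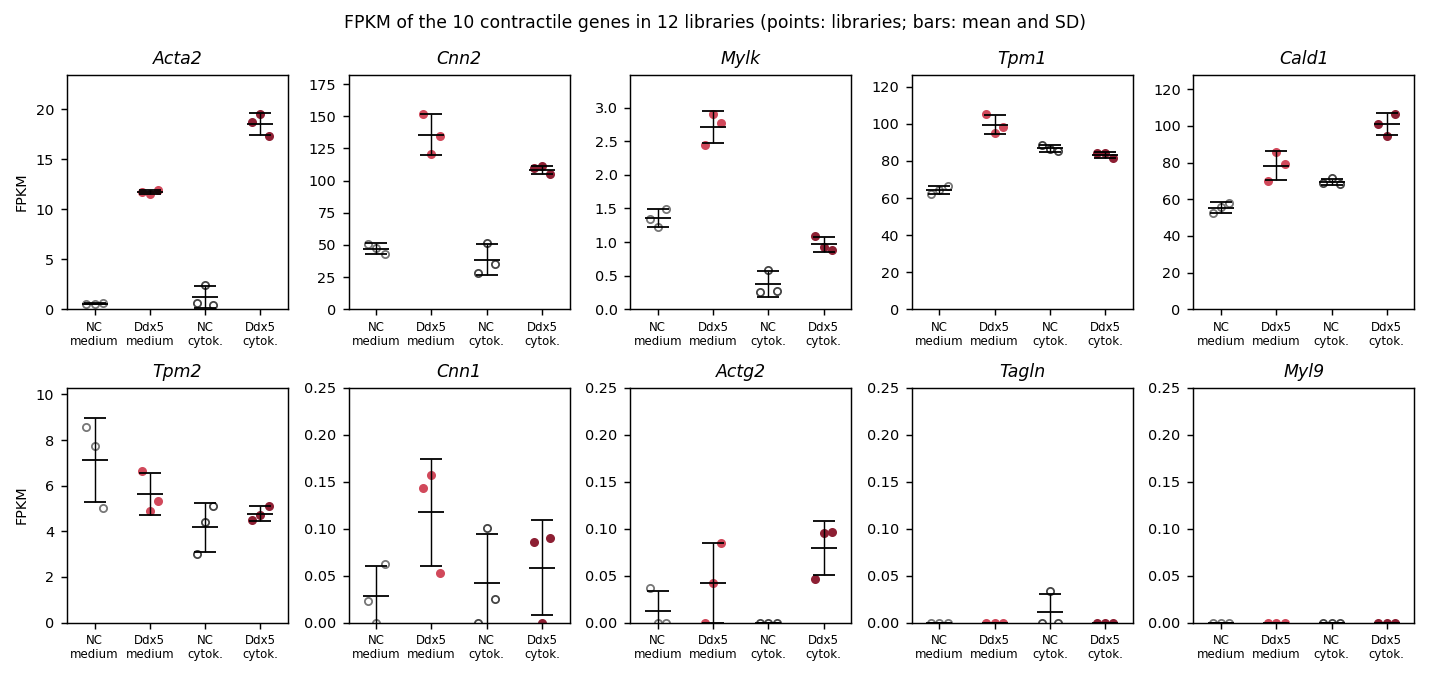
FPKM of the 10 contractile genes (vertical axis, each panel with its own scale from 0) in shRNA-NC (open) and shRNA-Ddx5 (filled) cells in medium and with cytokines; points are libraries, bars the mean and SD of 3. Acta2 lies at or below 2.45 FPKM in every control library and between 11.5 and 19.5 in every knockdown library, while Tagln and Myl9 stay at or near 0 throughout.

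*Acta2* (gene 11475, chr19:34217736-34232985, minus strand, GRCm39) encodes smooth muscle α-actin. Its FPKM in medium was 0.531, 0.521 and 0.587 in the shRNA-NC libraries and 11.7, 11.5 and 11.9 in the shRNA-*Ddx5* libraries. With cytokines it was 0.655, 2.45 and 0.469 in shRNA-NC and 18.7, 19.5 and 17.3 in shRNA-*Ddx5*. Control and knockdown libraries were thus far apart in both conditions, and the single high control was replicate 2 with cytokines. The control values rested on 25 to 31 fragments per library, except for 130 in that replicate, and the knockdown values on 546 to 881. The log2 fold change was 3.04 in medium and 3.26 with cytokines (standard error 0.24 in both, adjusted p = 4.0e-06 and 2.5e-06 by limma), which ranked 10 and 9 from the top among all tested genes. Without replicate 2 of shRNA-NC with cytokines the ratio of means with cytokines was 32.9 in place of 15.5, and the log2 fold change 3.64 (adjusted p = 7.5e-09 by limma).

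The second actin of smooth muscle was not seen at a usable depth. *Actg2* (gene 11468, chr6:83489891-83513233, minus strand), the enteric γ-actin, had 0 to 2 fragments per library and 9 in all 12. It was listed at 0 in the 3 shRNA-NC libraries with cytokines and had 1, 2 and 2 fragments in the 3 shRNA-*Ddx5* libraries. Without a filter on low values this difference had an adjusted p of 0.0244 by limma, on fragments below the floor of 3. No fold is given.

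Against the other actins *Acta2* stayed a small fraction. The 6 actin genes summed to 1943 FPKM in shRNA-NC in medium, nearly all of it from the cytoplasmic *Actb* and *Actg1*. *Acta2* made up 0.0282% ± 0.00142 (SD, n = 3) of that sum, and in the knockdown 0.506% ± 0.0133 (SD, n = 3). Under cytokines its share in control cells was 0.0675% ± 0.0633 (SD, n = 3), or 0.0311% without replicate 2, and in knockdown cells 0.944% ± 0.0292 (SD, n = 3). *Actg1* itself rose, in medium from 966 to 1265 FPKM (log2 fold change 0.39, adjusted p = 0.0075 by limma) and under cytokines from 848 to 1053 (0.31, adjusted p = 0.025). *Actb* had a log2 fold change of 0.09 in medium and -0.08 with cytokines, neither called.

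*Cnn2* (gene 12798, chr10:79824434-79831234, plus strand) encodes calponin 2, an actin-binding protein that is also made outside muscle. It stood at 51.0, 47.5 and 42.9 FPKM in shRNA-NC and at 152, 121 and 135 in shRNA-*Ddx5* cells in medium. With cytokines the values were 28.1, 51.7 and 35.5 against 110, 111 and 105. Every knockdown library exceeded every control, and replicate 2 of shRNA-NC with cytokines was again the highest of its group. The log2 fold change was 1.51 in medium and 1.52 with cytokines (standard error 0.17 in both, adjusted p = 5.1e-05 and 4.6e-05 by limma). It was 1.75 with cytokines without that replicate.

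*Cnn1* and *Tagln*, among the markers most often used for differentiated smooth muscle, were hardly detected. *Cnn1* (gene 12797, chr9:22010501-22020517, plus strand), which encodes calponin 1, had 0 to 6 fragments per library and at most 0.157 FPKM. Its fragments summed to 3 in control and 13 in knockdown libraries in medium, and to 5 and 6 with cytokines. *Tagln* (gene 21345, chr9:45840926-45847356, minus strand), which encodes transgelin, had 1 fragment in all 12 libraries together, in replicate 2 of shRNA-NC with cytokines, and a floor of 3 fragments corresponds to 0.0918 to 0.126 FPKM. Along the genome 2480 of its 6431 bases are shared with *Pcsk7* on the opposite strand, which had a mean of 6.30 FPKM, and how fragments of that stretch were assigned is not given in the sources used here. Their paralogs were abundant. *Cnn3* rose from 151 to 252 FPKM in medium (log2 fold change 0.73, adjusted p = 1.3e-04 by limma) and from 147 to 178 with cytokines (0.28, adjusted p = 0.037). *Tagln2* stood at 89.8 and 104 FPKM in medium and at 184 and 178 with cytokines, with no call for the knockdown. Within the calponins *Cnn2* held 23.8% ± 2.79 (SD, n = 3) of the FPKM of control cells in medium, and of knockdown cells 35.0% ± 2.06 (SD, n = 3). Under cytokines the control share was 20.8% ± 6.66 (SD, n = 3), or 17.3% without replicate 2, while the knockdown share was 37.9% ± 0.394 (SD, n = 3).

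**Figure D2:**
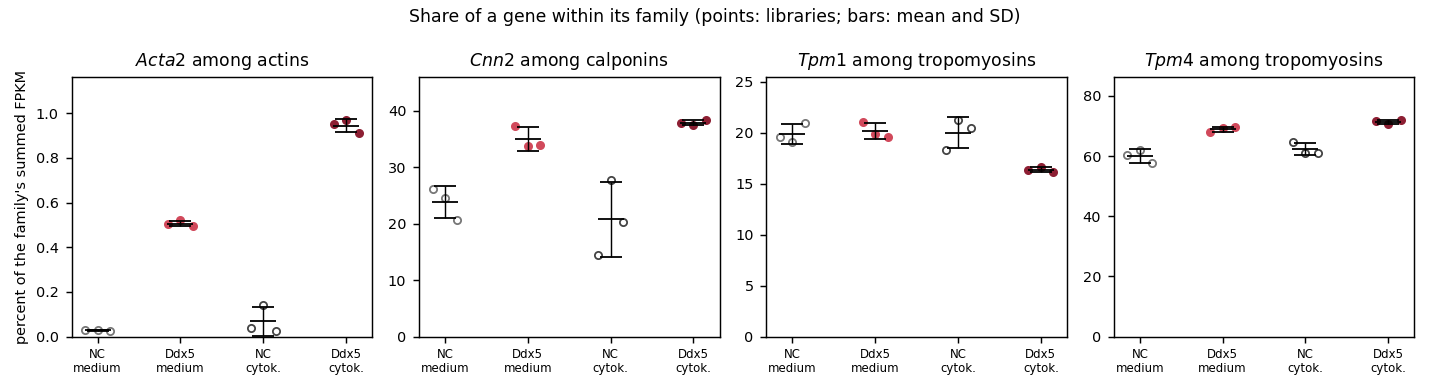
Percent of a family's summed FPKM (vertical axis, from 0, each panel with its own scale) taken by Acta2 among 6 actins, Cnn2 among 3 calponins, and Tpm1 and Tpm4 among 4 tropomyosins; points are libraries, bars the mean and SD of 3 per group. The Acta2 share is higher in knockdown cells in both conditions yet stays under 1%.

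Tropomyosins are coiled coils that lie along the actin filament. *Tpm1* (gene 22003, chr9:66929872-66956954, minus strand) had 62.1, 64.1 and 66.6 FPKM in shRNA-NC and 106, 95.2 and 98.2 in shRNA-*Ddx5* cells in medium, with no overlap. With cytokines it had 88.5, 86.5 and 85.1 in shRNA-NC and 84.2, 84.4 and 81.5 in shRNA-*Ddx5*, where the knockdown libraries were slightly below the controls. The log2 fold change was 0.62 in medium (standard error 0.07, adjusted p = 2.9e-05 by limma) and -0.06 with cytokines (standard error 0.07, adjusted p = 0.52). These 2 effects differed, with an interaction of -0.68 (standard error 0.09, adjusted p = 0.0014 by limma). *Tpm1* was the only tested member with a called interaction, where 8.21% of all tested genes had one (3.46% upward and 4.75% downward). A gene-level table does not separate the muscle and non-muscle splice forms of *Tpm1*, nor the splice forms of any other member.

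*Tpm2* (gene 22004, chr4:43513726-43523583, minus strand), the β-tropomyosin, had 8.58, 7.74 and 5.04 FPKM in shRNA-NC and 6.65, 4.90 and 5.34 in shRNA-*Ddx5* in medium. With cytokines it had 3.02, 4.41 and 5.11 against 4.49, 4.70 and 5.13. The groups overlapped in both conditions, and the log2 fold changes were -0.27 and 0.18 (standard error 0.19 in both, adjusted p = 0.26 and 0.47 by limma). *Tpm4*, a non-muscle tropomyosin, was the most abundant of the family and rose from 195 to 341 FPKM in medium (log2 fold change 0.81, adjusted p = 6.6e-05 by limma) and from 273 to 364 with cytokines (0.42, adjusted p = 0.0045). *Tpm3* fell in both, from 57.8 to 48.5 and from 72.9 to 57.8 FPKM (adjusted p = 0.028 and 0.0070 by limma). *Tpm1* held 19.9% and 20.1% of the tropomyosin FPKM in control and knockdown cells in medium, and 19.96% and 16.4% with cytokines.

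*Cald1* (gene 109624, chr6:34575433-34752404, plus strand) encodes caldesmon, which binds actin and restrains myosin. Its FPKM in medium was 52.3, 55.8 and 58.2 in shRNA-NC and 70.1, 85.74 and 79.1 in shRNA-*Ddx5*. With cytokines it was 69.0, 71.5 and 68.4 in shRNA-NC and 101, 94.7 and 107 in shRNA-*Ddx5*. The knockdown libraries were the higher ones in both conditions. The log2 fold change was 0.49 in medium and 0.53 with cytokines (standard error 0.09 in both, adjusted p = 8.5e-04 and 5.0e-04 by limma), and under quantile normalization the first was no longer called (0.26, adjusted p = 0.079 by limma).

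*Mylk* (gene 107589, chr16:34565569-34822806, plus strand) encodes myosin light chain kinase. It had 1.35, 1.23 and 1.49 FPKM in shRNA-NC and 2.44, 2.91 and 2.77 in shRNA-*Ddx5* in medium, and 0.261, 0.591 and 0.269 against 1.09, 0.925 and 0.883 with cytokines. Knockdown libraries were above the controls in both conditions, and cytokine libraries below those in medium in both lines. The log2 fold change of the knockdown was 0.65 and 0.52 (standard error 0.11 in both, adjusted p = 6.1e-04 and 0.0025 by limma). With cytokines the ratio of means was 2.58, or 3.64 without replicate 2 of shRNA-NC. Its substrate gene *Myl9* (gene 98932, chr2:156617324-156623577, plus strand), the regulatory light chain of smooth muscle myosin, had no fragment in any of the 12 libraries, which allows up to 0.124 to 0.170 FPKM by the floor of 3 fragments. No other gene of the table overlaps it. The non-muscle light chains *Myl12a* and *Myl12b* were present at 115 and 69.6 FPKM in shRNA-NC in medium, and *Myl12a* rose to 163 with the knockdown (log2 fold change 0.49, adjusted p = 0.015 by limma).

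No stretch of 150 bases from the annotated transcripts of any of the 10 genes occurs in a transcript of another gene (GENCODE vM39). Transcripts were compared in their own direction only, so that antisense overlaps such as that of *Tagln* with *Pcsk7* were not covered. Floors cover counting error only.

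**Figure D3:**
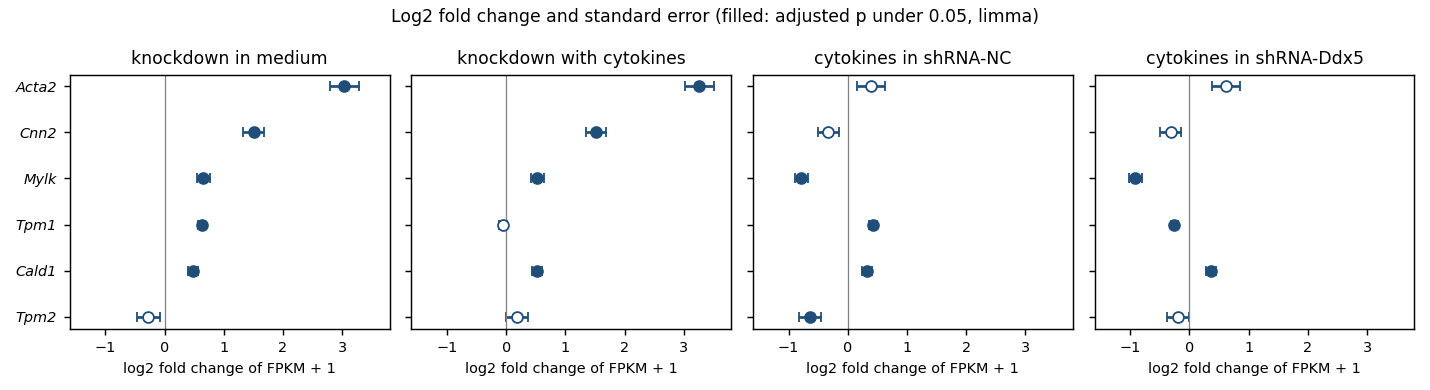
Log2 fold change of FPKM + 1 (horizontal axis) with its standard error for the 6 tested contractile genes in the knockdown contrasts (left 2 panels) and the cytokine contrasts (right 2 panels), each from 3 against 3 libraries; filled points have an adjusted p under 0.05 by limma. Acta2 stands to the right of the other 5 genes in both knockdown panels, and Mylk to the left of 0 in both cytokine panels.

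The cytokines did not move the group in a common direction. In shRNA-NC cells 2 of the 6 genes were called higher (*Tpm1* and *Cald1*) and 2 lower (*Mylk* and *Tpm2*), where 33.8% of all tested genes were called. In shRNA-*Ddx5* cells *Cald1* was called higher and *Mylk* and *Tpm1* lower, where 27% of all tested genes were called. These contrasts share their libraries with the knockdown contrasts, and their values are given side by side only. *Mylk* fell by 0.79 on the log2 scale in shRNA-NC and by 0.91 in shRNA-*Ddx5* (adjusted p = 2.9e-04 and 8.0e-05 by limma), to 27.6% and 35.7% of its mean FPKM in medium. *Cald1* rose by 0.32 and 0.36 (adjusted p = 0.013 and 0.0088 by limma), though neither call held under quantile normalization. *Tpm1* rose by 0.43 in shRNA-NC (adjusted p = 5.8e-04) and fell by 0.25 in shRNA-*Ddx5* (adjusted p = 0.016 by limma), and the fall was no longer called when replicate 1 or 3 of shRNA-*Ddx5* with cytokines was left out (adjusted p = 0.051 and 0.066). *Tpm2* fell by 0.64 in shRNA-NC (adjusted p = 0.021 by limma), with overlapping groups and with the call lost in 5 of 21 alternatives.

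*Acta2* was not called for the cytokines in either line. The log2 difference was 0.39 in shRNA-NC (adjusted p = 0.23 by limma), where the groups overlapped, unlike those of 45.7% of all tested genes, and 1 of 3 libraries was high. Without that library it was 0.0124 (adjusted p = 0.93 by limma). In shRNA-*Ddx5* it was 0.62 (adjusted p = 0.079 by limma), where the 3 cytokine libraries, at 17.3 to 19.5 FPKM, were all above the 3 in medium, at 11.5 to 11.9. When replicate 2 of shRNA-NC with cytokines was left out, which belongs to neither of those groups but enters the shared estimate of spread, this difference was called (adjusted p = 2.2e-04), as it was in a fit of only its own 6 libraries (adjusted p = 7.7e-04). The interaction for *Acta2* was 0.22 (adjusted p = 0.74), and 0.61 (adjusted p = 0.012 by limma) without that replicate. *Cnn2* had log2 differences of -0.33 and -0.31 (adjusted p = 0.17 and 0.21 by limma), and -0.56 in shRNA-NC without that replicate (adjusted p = 0.0082).

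The distance between *Acta2* and the rest was compared within libraries, as log2(FPKM + 1) of *Acta2* minus that of another gene. In medium this difference was larger in shRNA-*Ddx5* than in shRNA-NC by 1.53 against *Cnn2*, 2.38 against *Mylk*, 2.41 against *Tpm1*, 2.55 against *Cald1* and 3.31 against *Tpm2*. With cytokines it was larger by 1.74 against *Cnn2*, 2.74 against *Mylk* and *Cald1*, 3.08 against *Tpm2* and 3.32 against *Tpm1*. Each distance contains the change of *Acta2* itself, which ranked 10 in medium and 9 with cytokines from the top among all tested genes. How many other genes stand apart from *Acta2* in this way was not computed. Control and knockdown libraries did not overlap in any of these 10 comparisons, which is not read as a result about the other members. The exact two-sided permutation p was 0.1 in each, also after Benjamini-Hochberg adjustment over the 18 comparisons computed, which is the smallest that 3 against 3 libraries can give. Without replicate 2 of shRNA-NC the distances with cytokines were 1.90 against *Cnn2*, 3.01 against *Mylk*, 3.10 against *Cald1*, 3.42 against *Tpm2* and 3.701 against *Tpm1*. The exact permutation p was then 0.2 in each, the smallest that 2 against 3 libraries can give. *Acta2*, *Cnn2*, *Mylk* and *Cald1* were thus called higher in both conditions, with the largest log2 fold change of the 6 in *Acta2*, whereas *Tpm1* was called in medium only and *Tpm2* in neither.

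The order of the levels per length differed between groups. In shRNA-NC cells in medium *Tpm1* (64.3 FPKM), *Cald1* (55.4) and *Cnn2* (47.1) led, followed by *Tpm2* (7.12), *Mylk* (1.36) and *Acta2* (0.546). In shRNA-*Ddx5* cells with cytokines *Cnn2* (109) and *Cald1* (101) led, with ranges that overlapped, followed by *Tpm1* (83.4), *Acta2* (18.5), *Tpm2* (4.77) and *Mylk* (0.966). The summed FPKM of all 10 genes in medium was 175 to 177 in control and 321 to 349 in knockdown cells, and under cytokines 190 to 217 and 315 to 319.

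Across the 12 libraries Pearson's r of log2(FPKM + 1) with *Acta2* was 0.923 for *Cnn2*, 0.871 for *Cald1*, 0.609 for *Tpm1*, 0.440 for *Mylk* and -0.161 for *Tpm2*. By this measure *Cnn2* ranked 383 and *Cald1* 809 among 12367 genes compared. The 5 genes most like *Acta2* were *Adamts5*, an aggrecanase (0.993), *Cacna1g*, a T-type calcium channel (0.991), the kinase gene *Camkk2* (0.990), *Penk*, the precursor of enkephalins (0.990), and *Ckap4*, a membrane protein of the endoplasmic reticulum (0.988). *Adamts5*, for one, averaged 0.922 FPKM in control and 6.82 in knockdown cells in medium, and 1.62 and 10.5 under cytokines. The points are libraries of only 4 groups, so that these values mainly describe how the group means compare. After the group means were removed, r with *Acta2* was 0.801 for *Mylk* and 0.781 for *Cnn2*, and at most 0.122 for the other 3. That remainder holds replicate 2 of shRNA-NC with cytokines, in which *Acta2*, *Mylk* and *Cnn2* were all the highest of their group. Without that library r after removal of the group means was 0.201 for *Mylk* and -0.352 for *Cnn2*, so that both values rested on it, and it was 0.528 for *Tpm1*, -0.266 for *Cald1* and -0.627 for *Tpm2*. Across the remaining 11 libraries with the group means kept, r was 0.923 for *Cnn2* and 0.872 for *Cald1*. Leaving the library out of the shares and of these correlations was decided after the data were seen.

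Other genes of the pathway were taken from 3 lists. Of 13 further genes of differentiated smooth muscle only 3 were tested, and 1 was called, *Csrp1*, a LIM protein bound to actin, which rose from 13.7 to 19.5 FPKM with cytokines (log2 fold change 0.48, adjusted p = 0.011 by limma). The list's median was 0.13 in medium and 0.10 with cytokines, and over all tested genes 47% and 45.6% were called. *Myh11*, the smooth muscle myosin heavy chain, had 1 to 10 fragments per library, and *Des*, which encodes desmin, had at most 1. Of 15 non-muscle isoforms and paralogs 11 were tested, 4 were called higher and 1 lower in medium, and 5 higher and 1 lower with cytokines, with medians of 0.35 and 0.28. Called genes thus made up 5 and 6 of 11, near the 47% and 45.6% of all tested genes. Beside those given above, *Myl6*, a myosin essential light chain, rose from 257 to 460 FPKM with cytokines (log2 fold change 0.85, adjusted p = 0.025 by limma).

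Of the regulators named above, *Srf* rose from 9.18 to 12.9 FPKM in medium (log2 fold change 0.47, adjusted p = 0.037 by limma) and was not called with cytokines (0.16, adjusted p = 0.48). *Mrtfa*, which encodes MRTF-A, rose from 22.6 to 41.1 FPKM with cytokines (0.87, adjusted p = 0.0025) and was not called in medium (0.31, adjusted p = 0.18 by limma). *Mrtfb*, which encodes MRTF-B, had -0.17 and -0.14 (adjusted p = 0.14 and 0.22 by limma). *Myocd*, the gene of myocardin, had at most 3 fragments in any library.

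Of 20 stress fibre and focal adhesion genes 19 were tested, with 9 called higher and 2 lower in medium, 9 higher and 4 lower with cytokines, and medians of 0.16 and 0.14. That is 11 and 13 of 19 called in either direction, beside 47% and 45.6% of all tested genes. *Fhl2*, a LIM protein of focal adhesions, rose from 9.64 to 45.5 FPKM in medium (log2 fold change 2.14, adjusted p = 1e-06 by limma) and from 19.5 to 34.5 with cytokines (0.80, adjusted p = 5.6e-04). *Palld*, which encodes the actin cross-linker palladin, rose from 27.1 to 43.5 FPKM in medium (0.67, adjusted p = 0.0022 by limma) and from 6.93 to 21.2 with cytokines (1.502, adjusted p = 1e-05). *Synpo*, the gene of synaptopodin, rose in both (1.00 and 0.70), as did *Pdlim5*, which codes for a PDZ and LIM domain protein (0.79 and 0.82). *Actn4*, an α-actinin, fell in both (-0.65 and -0.49), and *Filip1l* fell with cytokines (-0.76).

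**Figure D4:**
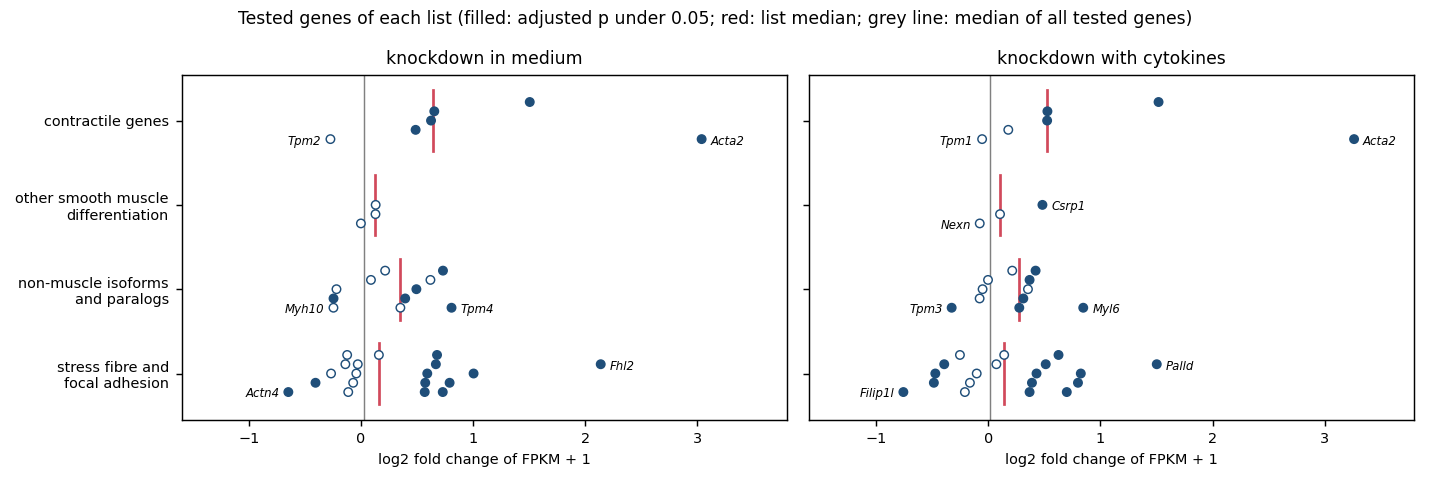
Log2 fold change of FPKM + 1 for the knockdown (horizontal axis) of each tested gene of the contractile group and of 3 related lists, in medium (left) and with cytokines (right); filled points have an adjusted p under 0.05 by limma, red bars are list medians and the grey line is the median of all tested genes. The contractile median lies at 0.64 and 0.53, and that of the 3 other smooth muscle genes at 0.13 and 0.10, with Csrp1 called at 0.48 with cytokines.

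Markers of other cell types were checked because the contractile genes are also expressed by muscle and mural cells. None of 9 striated muscle markers and none of 5 endothelial markers was tested, and *Myod1* and *Myog* had no fragment. The 9 striated markers summed to 0.0975 to 0.944 FPKM over all groups, and the 5 endothelial ones to 0.0404 to 0.187. Of 5 pericyte markers *Rgs5* and *Abcc9* were near 0 and *Kcnj8* was listed at 0, whereas *Pdgfrb* and *Cspg4*, which fibroblast-like cells also express, were tested, and the list summed to 12.5 to 44.2 FPKM. *Cspg4* fell with the knockdown, in medium from 8.67 to 3.61 FPKM and under cytokines from 2.96 to 0.971 (log2 fold changes -1.06 and -0.96, adjusted p = 0.0011 and 0.0022 by limma). *Pdgfrb* rose under cytokines from 15.9 to 41.8 FPKM (1.38, adjusted p = 9.1e-05 by limma) and was not called in medium (0.15, adjusted p = 0.50). Of 5 leukocyte markers *Ptprc* had no fragment and *Cd68* alone was tested, with no call, and the list summed to 1.29 to 2.49 FPKM. *Lyz2*, the gene of a lysozyme and below the filter, had 1 fragment in each control library in medium and 14 to 23 in the knockdown libraries (means of 0.0518 and 0.934 FPKM). Under cytokines it had 0 to 2 and 5 to 15 fragments (means of 0.0504 and 0.569 FPKM). Of 10 chondrocyte markers 4 were tested, and the cells listed *Acan*, the gene of aggrecan, at 0 to 0.0326 FPKM. *Col9a1* and *Hapln1*, also below the filter, had 0 fragments in every control library. In knockdown libraries *Col9a1* had 14 to 17 fragments in medium and 3 to 6 with cytokines, and *Hapln1* had 7 to 12 and 1 to 10. Ranges of *Comp*, *Matn1* and *Matn3*, the remaining untested markers, overlapped between control and knockdown libraries in both conditions. *Col2a1*, the main collagen of cartilage, fell with the knockdown, in medium from 12.4 to 0.899 FPKM and under cytokines from 6.33 to 0.779 (adjusted p = 6e-06 and 5.5e-05 by limma), while *Col11a1* rose from 0.897 to 4.78 and from 0.284 to 3.04 FPKM. *Col11a2* fell in both (-0.78 and -0.48), and *Sox9* fell with the knockdown under cytokines (-0.61, adjusted p = 1.7e-04 by limma) and had -0.19 in medium. The part of these changes in the contractile values was not tested.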

How the data were processed

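RNA was measured in 12 libraries of ATDC5 cells, 3 per group, by paired-end sequencing of poly(A) RNA. The authors counted fragments on genes and deposited FPKM per gene. The submitters' processing notes name HISAT2 2.0.5, featureCounts 1.5.0-p3, DESeq2 1.20.0, GATK 3.7 and mm10, while the chromosome names and positions of the table are those of GRCm39. Whether strand was used in counting is not given in the sources used here, so that reads of overlapping antisense genes cannot be told apart. Multiplied by gene length and divided by the smallest step of its library, each FPKM gave a whole number (within 1e-05), read as fragments, 14119199 to 19276520 per library. The denominators were 0.957 to 1.08 times these sums. The 19522 genes without a fragment and 400 unnamed loci stayed in the table.

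Groups were taken from the labels. The 12368 genes that reached 1 FPKM in 3 or more libraries were tested as log2(FPKM + 1) with limma 3.58.1 in R 4.3.3 (eBayes with trend, 4 group means, no covariate, 12 libraries), p-values being adjusted by Benjamini-Hochberg and called under 0.05. The contrasts were the knockdown in each condition, the cytokines in each line and the interaction. A count model was not used because the deposited unit is FPKM. The fit recovered 178 of 200 genes (89%) simulated with a log2 change of 1 in the knockdown with cytokines. There were 8 false calls among the unchanged rest of the 12368 genes. The simulation gave every gene the same spread beyond counting error and held no library that stood apart. It also changed far fewer genes than were called here, so its false calls do not measure those of the real libraries.

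The members and lists were chosen with earlier results of these data known. The genes named are the 10 members, *Ddx5*, the 5 genes most correlated with *Acta2*, up to 4 called genes per list with the largest change, those a list's count needs and detected markers of other cell types; *Actb*, *Actg1*, *Tpm3*, *Tagln2*, *Myl12b*, *Myh11*, *Des*, *Srf*, *Mrtfa*, *Mrtfb*, *Myocd*, *Actn4* and *Filip1l* are named beside them as relatives, regulators or list members, after their values were seen. The result of a further list is not reported here. Alternatives were a pseudocount of 0.1, no filter or a stricter filter, quantile normalization, scaling to summed fragments, no trend, a replicate block, voom weights on recovered fragments, only the 6 libraries of a contrast and 12 fits that each left out 1 library. Plots were made in Python 3.11.15 (matplotlib 3.10.9).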

Additional observations from a re-analysis of the deposited data

Results flagged for a closer look

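*Tpm1* was set apart because its knockdown effect was not the same in the 2 conditions: the log2 fold change with cytokines minus that in medium was -0.68 (limma, Benjamini-Hochberg adjusted p = 0.0014), and it stayed between -0.71 and -0.59 and past the threshold in all 20 alternatives. All 3 knockdown libraries were above the controls in medium (95.2 to 106 against 62.1 to 66.6 FPKM) and below them with cytokines (81.5 to 84.4 against 85.1 to 88.5 FPKM).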

How the results depend on the processing

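The members called for the knockdown numbered 4 to 6 in medium and 4 to 5 with cytokines over 21 alternatives, and 5 to 6 and 4 when 1 library was left out. For the cytokines they numbered 3 to 5 in shRNA-NC and 2 to 4 in shRNA-*Ddx5* with 1 library left out, and 5 in shRNA-*Ddx5* with only the 6 libraries of the contrast. The interaction gave 1 to 2 called members, the second being *Acta2* without shRNA-NC replicate 2 with cytokines. *Acta2*, *Cnn2* and *Mylk* were called for the knockdown in both conditions under all 21 alternatives, with *Acta2* between 3.00 and 4.41 in medium and between 3.03 and 4.31 with cytokines. Of the interactions that were not called, those of *Acta2*, *Mylk*, *Cnn2* and *Cald1* changed sign, while that of *Tpm2* stayed between 0.28 and 0.65. *Acta2* was at -0.0186 with a pseudocount of 0.1, -0.0926 with voom weights and -0.0093 at its lowest with 1 library left out (highest 0.61). *Mylk* was at 0.29 and 0.45 under the first 2 settings. With 1 library left out *Cnn2* ran from -0.18 to 0.24 and *Cald1* from -0.0367 to 0.107. The cause was not tested.

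Under quantile normalization *Tpm1* was called lower with the knockdown under cytokines (-0.21, adjusted p = 0.015 by limma) and *Cald1* was not called for the cytokines in either line (0.13 and 0.20), nor in shRNA-NC when scaled to summed fragments (0.24, adjusted p = 0.065). *Tpm2* was called lower with the knockdown in medium without shRNA-NC replicate 3 (-0.47, adjusted p = 0.040). With the replicate number as a block the calls were 5 and 4 members for the knockdown, 4 and 3 for the cytokines and 1 for the interaction, and no member's call changed. Over all genes the block gave 5452 calls for the knockdown in medium, against 5817, 687 interactions, against 1016, and 2902 calls for the cytokines in shRNA-*Ddx5*, against 3344. Deviations of libraries that share a number had correlations from -0.394 to 0.448, over 0.1 in 4 of 18 pairs, and 3 of 12 libraries were most like one of their own number, so the numbers were not taken to pair libraries. Over all genes, calls for the cytokines in shRNA-*Ddx5* fell from 3344 to 2219 without shRNA-*Ddx5* replicate 3 in medium, and interactions from 1016 to between 493 and 620 in 5 fits without 1 library. No scaling moved the median of all genes by more than 0.08. Values below 3 fragments are limited by depth, as in every library for *Actg2*, *Tagln* and *Myl9* and in some for *Cnn1*.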

Other observations

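Genes beside the contractile group moved with the cytokines. *Palld* fell by 1.84 and 1.00 on the log2 scale (adjusted p = 2.3e-06 and 2.2e-04), and the difference between the lines was called (0.83, adjusted p = 0.023 by limma). *Synpo* fell by 1.22 and 1.52. *Fhl2* rose in shRNA-NC from 9.64 to 19.5 FPKM, and its interaction was -1.34 (adjusted p = 0.0015 by limma). *Sox9*, the chondrocyte transcription factor, fell from 27.5 to 8.76 FPKM in shRNA-NC and from 24.1 to 5.40 in shRNA-*Ddx5* (log2 fold changes -1.55 and -1.97, adjusted p = 1.8e-07 and 2.0e-08 by limma). *Pdgfrb*, the receptor for PDGF-B, fell from 30.6 to 15.9 FPKM with cytokines in shRNA-NC, was at 34.1 and 41.8 in shRNA-*Ddx5*, and had an interaction of 1.23 (adjusted p = 0.012 by limma).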
